A study of Mus musculus with 9 samples.

Results

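The 10 genes followed here belong to the Hippo pathway, and were measured in mouse ear epidermis: the coactivators Yap1 and Wwtr1 (the gene of TAZ), their DNA-binding partners Tead1, Tead2, Tead3 and Tead4, the kinases Lats1 and Lats2, and the target genes Cyr61 (now named Ccn1) and Ctgf (now named Ccn2). They were chosen by their symbols in the deposited gene table, and make up 10 of its 52550 genes. A second row of the table also bears the symbol Lats2 (ENSMUSG00000114942, Gm49361 in GENCODE) and held 12 counts over all libraries, so ENSMUSG00000021959 was used. RNA was sequenced from intact epidermal ear sheets of wild type C57BL/6 mice aged 8 weeks, as the labels put it (the methods give the substrain C57BL/6J), in 3 groups of 3 libraries. Mice of the VAS+H2O group had Vaseline on the ear for 5 days and water by gavage for 10 days. Those of the IMQ+H2O group had imiquimod, a Toll-like receptor 7 agonist that provokes psoriasis-like inflammation, in place of Vaseline. Those of the IMQ+XYF group had imiquimod and, in place of water, the herbal decoction Xiao-Yin-Fang (XYF) at 23.3 mg/g. The methods speak of ear sheets from 2 mice without saying whether each library held both, so p-values measure the spread between libraries, which may be partly technical.

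In the Hippo pathway, a kinase cascade that ends in LATS1 and LATS2 phosphorylates YAP and TAZ and keeps them out of the nucleus. When the kinases are quiet, YAP and TAZ enter the nucleus, bind TEAD proteins and switch on genes such as Cyr61 and Ctgf, which encode secreted matricellular proteins of the CCN family. In epidermis the pathway is known for its part in the growth of basal keratinocytes. Much of this control acts on the proteins, which transcript levels do not show.

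The bases before the annotated start of Cyr61, one of the 2 targets that were lower in IMQ+H2O, and of the coactivators Yap1 and Wwtr1 are given because each holds the core TEAD motif GGAATG, here in capitals (CATTCC where it lies on the other strand). The sequences are from RefSeq on GRCm38.p6 and run 5′ to 3′ on the strand of the gene, over the 250 bases before the start: chr3:145649986-145650235 for Cyr61, chr9:8004597-8004846 for Yap1 and chr3:57575911-57576160 for the first of 2 annotated starts of Wwtr1, all on the minus strand.
Cyr61: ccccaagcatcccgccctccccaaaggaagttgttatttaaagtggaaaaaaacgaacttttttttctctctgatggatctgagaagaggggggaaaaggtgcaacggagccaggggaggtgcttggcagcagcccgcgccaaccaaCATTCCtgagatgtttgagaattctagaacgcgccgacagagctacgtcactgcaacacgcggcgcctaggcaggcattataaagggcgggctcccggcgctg
Yap1: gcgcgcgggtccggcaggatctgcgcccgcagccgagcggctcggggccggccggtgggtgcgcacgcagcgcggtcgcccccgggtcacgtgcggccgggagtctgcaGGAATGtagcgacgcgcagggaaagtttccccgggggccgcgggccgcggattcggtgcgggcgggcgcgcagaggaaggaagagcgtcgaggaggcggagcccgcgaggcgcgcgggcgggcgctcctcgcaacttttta
Wwtr1: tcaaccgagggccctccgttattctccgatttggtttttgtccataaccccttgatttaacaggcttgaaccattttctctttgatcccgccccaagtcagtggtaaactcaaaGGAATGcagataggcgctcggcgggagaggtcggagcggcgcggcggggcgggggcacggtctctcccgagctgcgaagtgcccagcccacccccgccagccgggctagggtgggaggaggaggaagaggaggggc
The motif lay 103 to 98 bases before the start in Cyr61, 141 to 136 in Yap1 and 136 to 131 in Wwtr1. RefSeq windows were at hand for 7 of the 10 genes, in 11 windows of which some overlap. Tead1, Tead4 and Ctgf had no window, so their promoters were not searched. GGAATG, searched on both strands, was also found in 2 of the 3 windows of Tead3, and was not among the letters of the windows of Tead2, Lats1 and Lats2. Of all 32851 windows of this length, 12.6% held it. The AP-1 motif TGANTCA, found in 6.75% of all windows, and the CArG box of serum response factor, found in 1.47%, were in none of the 11 windows on either strand. These matches describe letters and are not evidence of binding.

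All 10 genes passed the low-count filter in each comparison. Counts per library totalled 30298275 to 64771160, and 3 counts, taken as the floor of detection for counting error only, stood for 0.0463 to 0.0990 CPM, which gives counts on a common library size of 1e6. CPM values of genes are scaled by edgeR's TMM factors. The labelled tissue was checked by its markers: 5 basal keratinocyte genes summed to 15418 to 24567 CPM and 6 suprabasal keratinocyte genes to 30292 to 49550 CPM per library. Markers of other cell types were detected at lower levels. Of 8 cartilage genes, Matn1 was at 0 in all libraries and the sum was 193.6, 462.8 and 215.9 CPM for VAS+H2O, 82.9, 57.7 and 38.9 for IMQ+H2O, and 204.6, 140.6 and 140.9 for IMQ+XYF, in the order of replicates 1, 2 and 3. All 8 dermal fibroblast genes were detected, with sums of 188.9, 970.8 and 231 CPM for VAS+H2O, 97.2, 86.3 and 78.0 for IMQ+H2O, and 344.1, 253.1 and 157.3 for IMQ+XYF. VAS+H2O replicate 2 thus stood apart, and 5 skeletal muscle genes summed to 122.3 CPM in it, 36.5 in IMQ+XYF replicate 2 and 3.21 to 15.9 in the other 7 libraries. The 6 leukocyte markers summed to 47.9 to 121.6 CPM, with the highest sums in IMQ+H2O replicate 3 (121.6) and IMQ+XYF replicate 1 (102.8). Csf3r, a neutrophil receptor gene among them, had 38.0 and 22.9 CPM in these libraries and 0 to 6.10 in the other 7. Endothelial (3.76 to 12.1), smooth muscle and pericyte (1.86 to 11.3), adipocyte (3.13 to 17.2) and Schwann cell and melanocyte markers (11.4 to 32.4) had lower sums.

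Per kilobase of exon, the scale on which genes can be compared, Cyr61 was the most abundant of the 10 genes in all 3 groups and Tead2 the least. In VAS+H2O the order was Cyr61 at 226 CPM per kb, Ctgf at 88.5, Yap1 at 25.5, Tead3 at 19.1, Lats1 at 14.8, Wwtr1 at 12.0, Tead4 at 8.91, Lats2 at 4.30, Tead1 at 1.89 and Tead2 at 0.446. Only the pairs Lats2 and Tead1, and Tead1 and Tead2, overlapped among neighbours in that order. In IMQ+H2O, Ctgf came after Yap1, at 23.3 CPM per kb, its 3 libraries (17.7 to 33.0) overlapping those of Yap1 (23.4 to 27.7) and Tead3 (15.6 to 20). In IMQ+XYF it was second again, at 69.5 CPM per kb, with a range of 43.4 to 116 that overlapped Cyr61 (90.8 to 166). Within each IMQ+XYF library Cyr61 was above Ctgf (165.6 and 115.6, 138.2 and 49.55, 90.79 and 43.42 in replicates 1, 2 and 3). Tead1 moved above Lats2 in that group, at 4.05 against 3.35 CPM per kb, again with overlap.

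**Figure D1:**
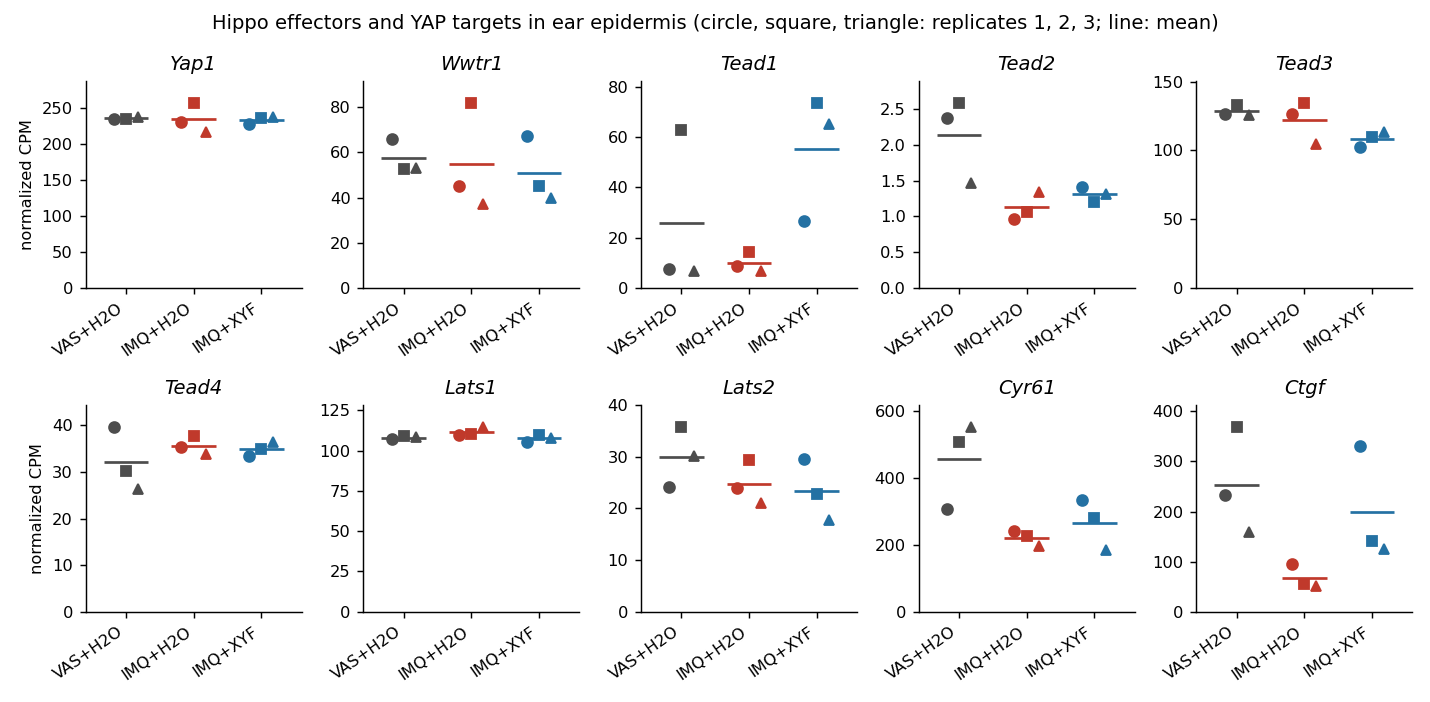
Normalized CPM (vertical axes from 0, a scale for each gene) of the 10 genes in the 9 libraries, by group (horizontal axes), with circles, squares and triangles for replicates 1, 2 and 3 and a line at the mean. Yap1 and Lats1 lay within narrow bands in all groups, Ctgf in IMQ+H2O lay at 50.6 to 94.4 CPM, under every library of the other groups, and Tead1 was high in VAS+H2O replicate 2 and in the IMQ+XYF libraries.

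The coactivator genes did not pass the test in any comparison. Yap1 (ENSMUSG00000053110, chromosome 9, 7931999 to 8004596, minus strand, GRCm38) had 234.5, 235.2 and 237.6 CPM for VAS+H2O, 230.7, 256.8 and 217.0 for IMQ+H2O, and 227.4, 236.5 and 237.5 for IMQ+XYF. The groups overlapped, and its log2 fold change was -0.02 (SE 0.08) between IMQ+H2O and VAS+H2O, -0.00031 (SE 0.08) between IMQ+XYF and IMQ+H2O, and -0.01 (SE 0.06) between IMQ+XYF and VAS+H2O, with edgeR adjusted p of 0.891, 1 and 0.892. Wwtr1 (ENSMUSG00000027803, chromosome 3, 57455649 to 57575910, minus strand) varied more among libraries of a group than between groups. It had 66.1, 52.8 and 53.1 CPM for VAS+H2O, 45.2, 81.8 and 37.3 for IMQ+H2O, and 67.4, 45.0 and 39.7 for IMQ+XYF. IMQ+H2O replicate 2 was thus 2.20 times the lowest library of its group. The log2 fold changes of Wwtr1 were -0.08 (SE 0.28), -0.10 (SE 0.33) and -0.18 (SE 0.21) in the same 3 comparisons, with edgeR adjusted p of 0.863, 1 and 0.558. The log2 ratio of Wwtr1 to Yap1 counts was -2.05 ± 0.19 (SD, n = 3) for VAS+H2O, -2.18 ± 0.47 for IMQ+H2O and -2.24 ± 0.43 for IMQ+XYF, and exact two-sided permutation tests gave p = 0.6, 0.7 and 0.5. This and the following ratios and shares make 18 tests over 6 measures, in which 3 libraries against 3 cannot give a p under 0.1, and no Benjamini-Hochberg adjusted value over the 18 was under 0.36.

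Among the Tead genes, Tead3 and Tead4 made up most of the transcripts and Tead1 was the one whose level spread widest. Tead3 (ENSMUSG00000002249, chromosome 17, 28331671 to 28350817, minus strand) had 126.8, 133.0 and 125.7 CPM for VAS+H2O, 126.1, 134.3 and 105.0 for IMQ+H2O, and 102.5, 109.5 and 113.1 for IMQ+XYF. All 3 IMQ+XYF libraries lay under all 3 VAS+H2O libraries. Tead3 fell by 0.25 on the log2 scale (SE 0.06) in IMQ+XYF against VAS+H2O, or 1.19-fold, with an edgeR adjusted p of 0.0304. That call was lost when any 1 of the 6 libraries was left out (adjusted p 0.0556 to 0.13). Over all genes tested, 5152 passed in this comparison with 6 libraries and 3221 to 4544 with 1 left out. The log2 fold changes of Tead3 between IMQ+H2O and VAS+H2O (-0.09, SE 0.10) and between IMQ+XYF and IMQ+H2O (-0.16, SE 0.10) did not pass, with edgeR adjusted p of 0.562 and 1. Tead4 (ENSMUSG00000030353, chromosome 6, 128224288 to 128300823, minus strand) had 26.3 to 39.7 CPM for VAS+H2O, 33.8 to 37.7 for IMQ+H2O and 33.4 to 36.4 for IMQ+XYF, and the groups overlapped. Its log2 fold changes were 0.14 (SE 0.16), -0.02 (SE 0.08) and 0.12 (SE 0.15), none of which passed.

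Tead1 (ENSMUSG00000055320, chromosome 7, 112679318 to 112906807, plus strand) ranged from 6.69 to 73.4 CPM, and its values crossed the groups. It had 7.38, 62.7 and 6.77 CPM for VAS+H2O, 8.74, 14.2 and 6.69 for IMQ+H2O, and 26.5, 73.4 and 65.2 for IMQ+XYF. The raw counts were 349, 2065 and 236 for VAS+H2O, 253, 547 and 289 for IMQ+H2O, and 1686, 2380 and 2286 for IMQ+XYF, so no library was near the floor. Every IMQ+XYF library exceeded every IMQ+H2O library, and VAS+H2O replicate 2 lay with the IMQ+XYF libraries while replicates 1 and 3 lay with IMQ+H2O. The log2 fold change was 2.48 (SE 0.44) between IMQ+XYF and IMQ+H2O, or 5.57-fold. It did not pass in edgeR (adjusted p = 0.352, unadjusted p 0.000867), while DESeq2 gave an adjusted p of 0.000743, and the fold change stayed between 2.22 and 2.84 when each library was left out in turn. Between IMQ+H2O and VAS+H2O it was -1.40 (SE 0.89, edgeR adjusted p = 0.294) and turned to 0.48 without VAS+H2O replicate 2. Between IMQ+XYF and VAS+H2O it was 1.11 (SE 0.90, edgeR adjusted p = 0.394), and 2.96 with an adjusted p of 0.0135 without that library. VAS+H2O replicate 2 was also the library with the highest sums of fibroblast, cartilage and skeletal muscle markers, and all 3 IMQ+XYF libraries had higher fibroblast and cartilage sums than all 3 IMQ+H2O libraries. VAS+H2O replicates 1 and 3, where Tead1 was at 7.38 and 6.77 CPM, had fibroblast and cartilage sums within the IMQ+XYF range or above it. Their skeletal muscle sums were 6.22 and 7.66 CPM, against 15.9, 36.5 and 5.045 in IMQ+XYF replicates 1, 2 and 3. The part of any of these markers in the Tead1 values was not tested. The genes that overlap Tead1 in GENCODE, 2310014F06Rik on the other strand and Gm44462 on its own, had at most 0.788 and 0.0285 CPM.

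Tead2 (ENSMUSG00000030796, chromosome 7, 45215753 to 45233644, plus strand) was the scarcest of the 10 genes, with 28 to 112 counts per library. It had 2.37, 2.58 and 1.46 CPM for VAS+H2O, 0.968, 1.07 and 1.34 for IMQ+H2O, and 1.41, 1.20 and 1.31 for IMQ+XYF. The VAS+H2O libraries lay above all others. The log2 fold changes of -0.93 (SE 0.30) in IMQ+H2O and -0.70 (SE 0.27) in IMQ+XYF, each against VAS+H2O, did not pass in edgeR (adjusted p of 0.0663 and 0.0935), and passed without VAS+H2O replicate 3 (adjusted p of 0.0451 and 0.0349). Cd37, a leukocyte gene on the opposite strand, overlaps Tead2 and had 1.63 to 4.14 CPM. The sources used here do not state the strand setting of the counting, so reads of the overlap cannot be told apart.

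The composition of the Tead family was computed from CPM per kb, as each gene's share of the summed Tead1 to Tead4 value. Tead1 made up 1.76, 13.9 and 1.86% for VAS+H2O, 2.19, 3.30 and 1.91% for IMQ+H2O, and 7.29, 17.1 and 15.0% for IMQ+XYF. Tead3 made up 63.4% ± 5.59 (SD, n = 3), 62.5% ± 1.66 and 53.7% ± 2.91 in the 3 groups, Tead4 29.3% ± 5.56, 34.2% ± 1.88 and 32.3% ± 2.08, and Tead2 1.45% ± 0.271, 0.825% ± 0.227 and 0.917% ± 0.164. Between IMQ+XYF and IMQ+H2O the mean Tead1 share was 10.7 percentage points higher and the mean Tead3 share differed by -8.78 points, without overlap of the libraries (20.87 and -17.33 points without division by exon length), and each reached only the smallest p of the exact permutation test, 0.1. The difference of Tead4 was -1.97 points (exact p = 0.3). Between IMQ+H2O and VAS+H2O the Tead1 share differed by -3.36 points (exact p = 1), and by 0.658 points without VAS+H2O replicate 2.

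**Figure D2:**
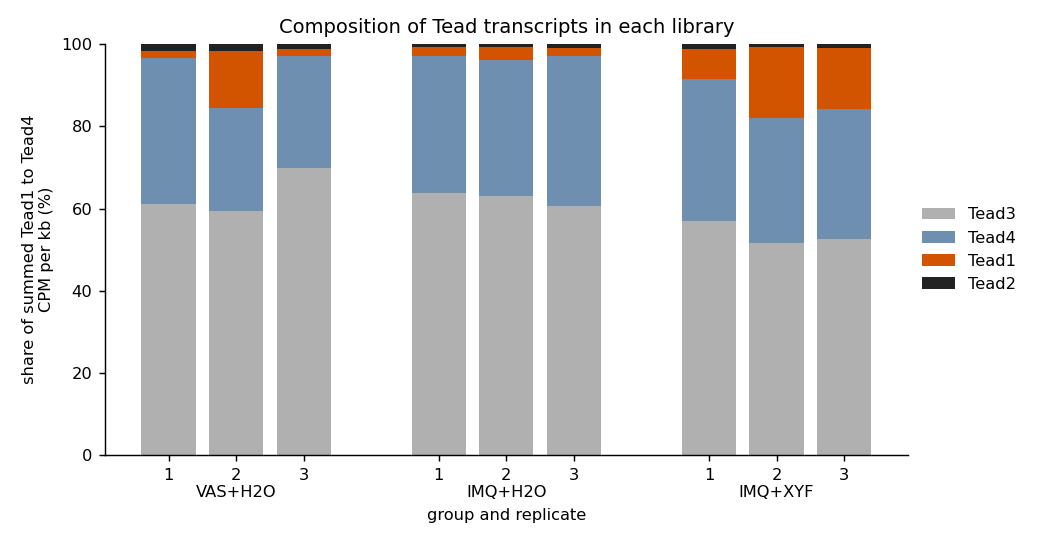
Shares (vertical axis, percent) of Tead3, Tead4, Tead1 and Tead2 in the summed CPM per kb of the 4 genes, with 1 stacked bar for each library (horizontal axis, group and replicate). The Tead1 segment was 13.9% in VAS+H2O replicate 2 and 7.29 to 17.1% in IMQ+XYF, and 1.76 to 3.30% in the other 5 libraries.

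The kinase genes did not pass in any comparison. Lats1 (ENSMUSG00000040021, chromosome 10, 7681214 to 7716460, plus strand) spread little over the 9 libraries, with 107.1, 109.0 and 108.3 CPM for VAS+H2O, 109.5, 110.6 and 114.8 for IMQ+H2O, and 105.3, 110.0 and 107.7 for IMQ+XYF. The IMQ+H2O libraries lay just above the VAS+H2O libraries, with a log2 fold change of 0.03 (SE 0.07, edgeR adjusted p = 0.753). The other 2 log2 fold changes were -0.05 (SE 0.06) and -0.01 (SE 0.05). Lats2 (ENSMUSG00000021959, chromosome 14, 57689662 to 57758388, minus strand) had 24.1, 35.7 and 30.1 CPM for VAS+H2O, 23.9, 29.4 and 21.0 for IMQ+H2O, and 29.6, 22.8 and 17.7 for IMQ+XYF. Its groups overlapped, and its log2 fold changes were -0.29 (SE 0.19), -0.08 (SE 0.21) and -0.36 (SE 0.22), with edgeR adjusted p of 0.298, 1 and 0.262. The log2 ratio of Lats2 to Lats1 counts was -1.87 ± 0.27 (SD, n = 3) for VAS+H2O, -2.19 ± 0.27 for IMQ+H2O and -2.24 ± 0.39 for IMQ+XYF, with p = 0.2, 0.9 and 0.3 in exact permutation tests for the 3 comparisons in the same order.

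Both target genes fell in IMQ+H2O against VAS+H2O, and neither passed in edgeR in IMQ+XYF against VAS+H2O. Ctgf (ENSMUSG00000019997, chromosome 10, 24595442 to 24598683, plus strand), whose product CTGF is a matricellular protein linked to fibrosis, had 232.4, 369.1 and 158.3 CPM in VAS+H2O and 94.4, 54.8 and 50.6 in IMQ+H2O. The groups did not overlap. Ctgf fell by 1.95 on the log2 scale (SE 0.37), or 3.85-fold, with an edgeR adjusted p of 0.016, and it still passed when each of the 6 libraries was left out in turn (log2 fold change -2.24 to -1.56, adjusted p 0.0214 to 0.0492). In IMQ+XYF it had 330.6, 141.8 and 124.2 CPM, each above every IMQ+H2O library, and 2 of the 3 were under the lowest VAS+H2O library. Against IMQ+H2O the log2 fold change was 1.59 (SE 0.43), which did not pass in edgeR (adjusted p = 0.575, unadjusted p 0.00782) or DESeq2 (adjusted p = 0.272), and it was 0.997 without IMQ+XYF replicate 1. Against VAS+H2O it was -0.35 (SE 0.45, edgeR adjusted p = 0.593).

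Cyr61 (ENSMUSG00000028195, chromosome 3, 145646976 to 145649981, minus strand), whose promoter with its single TEAD motif is shown above, had 308.4, 506.3 and 552.4 CPM in VAS+H2O and 242.4, 226.1 and 196.3 in IMQ+H2O, again without overlap. It fell by 1.06 on the log2 scale (SE 0.22), or 2.08-fold, with an edgeR adjusted p of 0.0196. In 5 of the 6 fits that left out 1 library the adjusted p rose to between 0.0511 and 0.0646, and it stayed under the threshold only without VAS+H2O replicate 1 (0.0161). DESeq2 gave 2.98e-05. In IMQ+XYF, Cyr61 had 334.3, 279.0 and 183.3 CPM, a range that overlapped both other groups. Its log2 fold change was 0.27 (SE 0.21, edgeR adjusted p = 1) against IMQ+H2O and -0.78 (SE 0.28, edgeR adjusted p = 0.0814) against VAS+H2O, and DESeq2 gave an adjusted p of 0.0115 for the latter.

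Cartilage and fibroblast markers had lower levels with IMQ+H2O than with VAS+H2O, as Ctgf and Cyr61 did. All 7 cartilage genes tested passed and were lower (median log2 fold change -2.92). Of 8 fibroblast genes, 3 passed and were lower, and the median over all 8 was -2.41. Among all genes tested, 9.41% passed and were lower. Between IMQ+XYF and IMQ+H2O, 2 cartilage genes, Col9a1 (log2 fold change 2.26, SE 0.17, edgeR adjusted p = 0.0193) and Col11a2 (1.82, SE 0.12, adjusted p = 0.0119), were among the 5 genes of the whole table that passed. The part of these markers in the Ctgf and Cyr61 values was not tested. VAS+H2O replicate 2 had the highest sums of both. Without it, the log2 fold changes in IMQ+H2O against VAS+H2O were -1.56 for Ctgf (edgeR adjusted p = 0.0429) and -0.96 for Cyr61 (edgeR adjusted p = 0.0646). That fit does not take the markers out. VAS+H2O replicates 1 and 3 had cartilage sums of 193.6 and 215.9 CPM and fibroblast sums of 188.9 and 231 CPM. The IMQ+H2O libraries had at most 82.9 CPM for cartilage and 97.2 for fibroblast markers. In whole sheets, fewer cells of a type and less RNA per cell cannot be told apart. Gm15270, which lies on the opposite strand of Ctgf, had 0.0926 to 7.52 CPM, far fewer than Ctgf in any library.

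**Figure D3:**
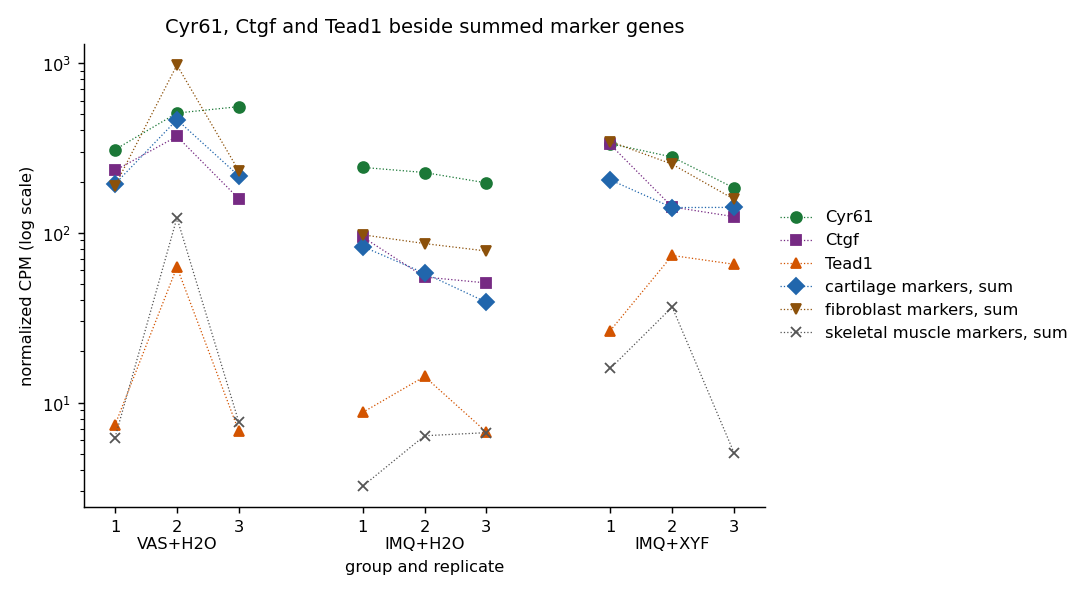
Normalized CPM (vertical axis, log scale) of Cyr61, Ctgf and Tead1 and the summed CPM of 8 cartilage, 8 fibroblast and 5 skeletal muscle markers in each library (horizontal axis, group and replicate; dotted lines join libraries of a group and carry no order). Ctgf and the cartilage and fibroblast sums were lowest in the 3 IMQ+H2O libraries, and Tead1 and all 3 sums were high in VAS+H2O replicate 2.

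Over the 10 genes, 2 passed between IMQ+H2O and VAS+H2O, against 22.1% of the 18009 genes tested. Both passed and were lower by 1 or more on the log2 scale, as 4.04% of all genes did. By any amount, 9.41% of all genes passed and were lower. There was no overlap between the groups for 4 of the 10 (Tead2, Lats1, Cyr61 and Ctgf), against 45.0% of all genes, and the median log2 fold change was -0.19, against -0.03 over all genes tested. Between IMQ+XYF and IMQ+H2O none of the 10 passed in edgeR, against 0.0281% of 17793 genes. Tead1 and Ctgf had an unadjusted p under 0.05, as 966 of all genes did. DESeq2 called 1 of the 10, Tead1, and 165 genes of the whole table. Tead1 and Ctgf were also the 2 genes without overlap, against 10.7% of all genes, and the median log2 fold change was -0.01, against 0.00058 over all genes. Between IMQ+XYF and VAS+H2O, 1 of 10 passed and was lower, against 28.7% of 17954 genes that passed and 12.0% that passed and were lower. Tead2 and Tead3 had no overlap, against 47.5% of all genes, and the median was -0.21, against -0.04 over all genes. The comparisons share groups: IMQ+H2O and VAS+H2O libraries each enter 2 of them.

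**Figure D4:**
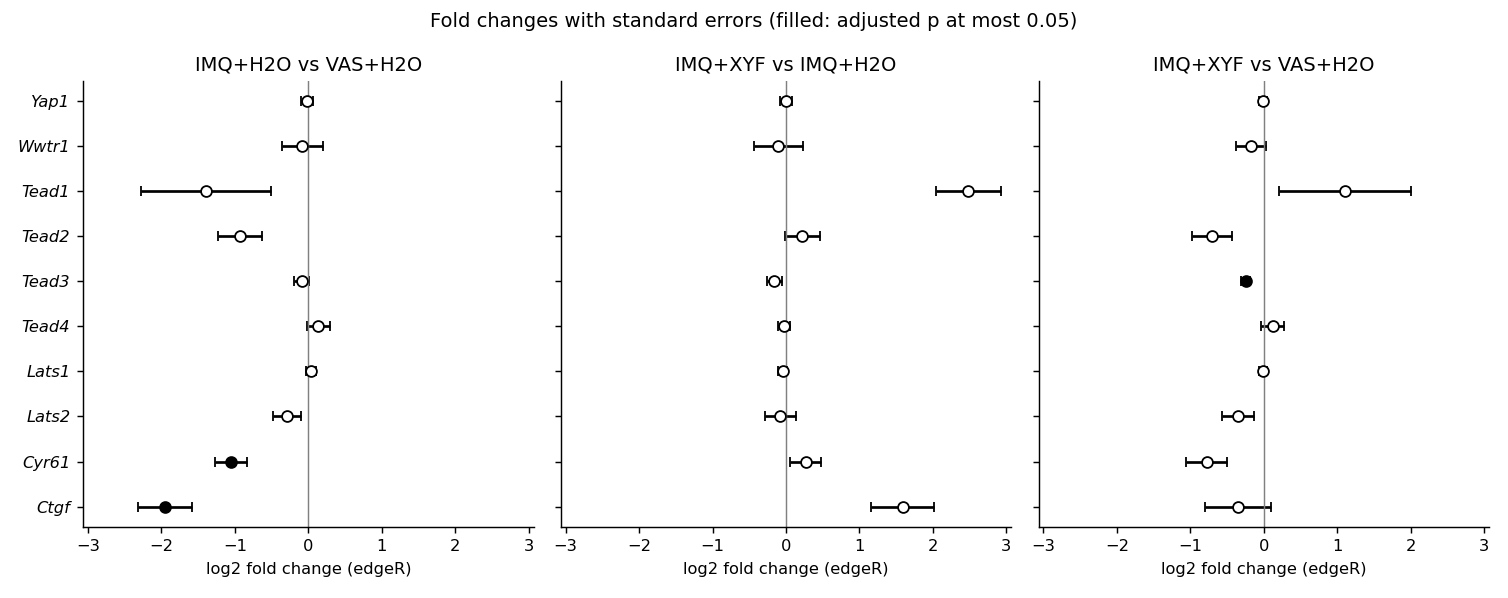
Log2 fold changes (horizontal axes, edgeR) of the 10 genes (vertical axis) with standard errors as bars, in the 3 comparisons, where filled points have an adjusted p of at most 0.05. Cyr61 and Ctgf in IMQ+H2O against VAS+H2O and Tead3 in IMQ+XYF against VAS+H2O are filled, and Tead1 has the highest point, 2.48, in IMQ+XYF against IMQ+H2O.

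A list of 23 genes, called upstream regulators here, held regulators upstream of LATS and also Stk38 and Stk38l, kinases related to LATS. All 23 were tested. Between IMQ+H2O and VAS+H2O, 3 were higher, 2 were lower and 18 did not pass, a share near the 22.1% of all genes that passed, with a median log2 fold change of -0.05. Rassf1, a scaffold of the MST kinases, had 24.5, 28.4 and 31.0 CPM in VAS+H2O and 42.1, 56.2 and 51.8 in IMQ+H2O, and rose by 0.83 on the log2 scale (SE 0.14, edgeR adjusted p = 0.0125). Wwc1 (KIBRA), which activates LATS, rose by 0.49 (SE 0.08, edgeR adjusted p = 0.0122), and Nf2 (Merlin), which recruits LATS to the membrane, by 0.28 (SE 0.07, adjusted p = 0.0347). Rassf1 and Wwc1 passed in all 6 fits with 1 library left out and Nf2 in 1. Stk38l (NDR2), a kinase related to LATS, fell by 0.48 (SE 0.12, edgeR adjusted p = 0.0362) and passed in none of these 6 fits. Fat4, a protocadherin, was scarce, with 1.57, 8.05 and 1.55 CPM in VAS+H2O and 0.173, 0.364 and 0.486 in IMQ+H2O. It fell by 3.42 (SE 0.81, edgeR adjusted p = 0.0282), and passed in 3 of the 6 fits with a library left out, where its log2 fold change was -3.79 to -2.16. Its highest value was in VAS+H2O replicate 2, the library with the highest fibroblast sum.

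The same list had 3 genes higher and 2 lower between IMQ+XYF and VAS+H2O, where 28.7% of all genes passed and 12.0% passed and were lower, with a median of -0.08. Wwc1 rose by 0.57 (SE 0.09), Rassf1 by 0.68 (SE 0.15) and Nf2 by 0.31 (SE 0.07), with edgeR adjusted p of 0.00452, 0.0182 and 0.0225. Frmd6 (Willin), a FERM domain protein, fell by 0.33 (SE 0.08, edgeR adjusted p = 0.0224) and Stk38l by 0.35 (SE 0.09, adjusted p = 0.028). With each library left out in turn, Wwc1 passed in all 6 fits, Rassf1, Nf2 and Frmd6 in 2 each and Stk38l in 1. None of the 23 passed between IMQ+XYF and IMQ+H2O in edgeR or DESeq2. In edgeR, 2, Fat4 and Stk38, had an unadjusted p under 0.05, as did 966 of all 17793 genes tested. Stk4 (MST1), a kinase upstream of LATS, is named here because of its spread, seen after the values: 74.9, 32.8 and 77.6 CPM for VAS+H2O, 42.1, 81.6 and 34.0 for IMQ+H2O, and 81.0, 38.8 and 39.5 for IMQ+XYF. It thus lay at 32.8 to 42.1 CPM in 5 libraries and at 74.9 to 81.6 CPM in the other 4, across the groups, and IMQ+H2O replicate 2 was high for Stk4 as for Wwtr1.

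Of 11 genes of proteins that bind YAP, TAZ or TEAD, Vgll1 and Vgll2 were too low to be tested. Between IMQ+H2O and VAS+H2O, 1 of the 9 others passed, against 22.1% of all genes. This was Amot (angiomotin), a scaffold that holds YAP in the cytoplasm. It had 2.03, 4.28 and 2.495 CPM in VAS+H2O and 0.449, 0.546 and 1.41 in IMQ+H2O and fell by 1.86 on the log2 scale (SE 0.51, edgeR adjusted p = 0.0438). It passed in 1 of the 6 fits with a library left out. Ptpn14, a phosphatase that binds YAP, was one of the more abundant partners, with 276.6, 351.2 and 389.4 CPM for VAS+H2O, 173.1, 259.6 and 126.2 for IMQ+H2O, and 169.2, 149.6 and 132.4 for IMQ+XYF. All libraries of both imiquimod groups lay under the lowest VAS+H2O library. Ptpn14 fell by 1.17 on the log2 scale (SE 0.15), or 2.25-fold, in IMQ+XYF against VAS+H2O (edgeR adjusted p = 0.00258), and passed in all 6 fits with a library left out. It was the 1 gene of the 9 that passed in that comparison, against 28.7% of all genes. In IMQ+H2O against VAS+H2O its log2 fold change of -0.88 (SE 0.26) did not pass in edgeR (adjusted p = 0.055) and passed in DESeq2 (0.00377). None of the 9 passed between IMQ+XYF and IMQ+H2O in either tool. In edgeR, 1, Amot, had an unadjusted p under 0.05, as did 966 of all 17793 genes tested. The medians over the 9 genes were -0.10, -0.02 and -0.11 in the 3 comparisons.

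Of 17 other genes known as YAP targets, Ankrd1 and Foxf2 were too low to be tested. Among the other 15, 5 fell and 2 rose between IMQ+H2O and VAS+H2O, where 22.1% of all genes passed and 9.41% passed and were lower (median log2 fold change of the list -0.14). The same numbers fell and rose between IMQ+XYF and VAS+H2O, where 28.7% of all genes passed. Tgfb2, the gene of a transforming growth factor, had 12.6, 20.2 and 10.96 CPM for VAS+H2O, 4.87, 4.71 and 4.42 for IMQ+H2O, and 6.76, 6.32 and 6.87 for IMQ+XYF. All libraries of both imiquimod groups lay under those of VAS+H2O. Tgfb2 fell by 1.66 (SE 0.25) in IMQ+H2O and by 1.13 (SE 0.24) in IMQ+XYF, each against VAS+H2O (edgeR adjusted p of 0.01 and 0.0141), and passed in 6 and 4 of the 6 fits with a library left out. Igfbp3, which encodes a binding protein of insulin-like growth factors, had 249.0, 246.6 and 327.8 CPM for VAS+H2O, 165.3, 132.8 and 121.6 for IMQ+H2O, and 120.5, 107.0 and 128.0 for IMQ+XYF. It fell by 0.98 (SE 0.16) and by 1.21 (SE 0.13) in the 2 comparisons (edgeR adjusted p of 0.0112 and 0.00168), and passed in all 6 fits of each with a library left out.

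Rbms3, an RNA-binding protein gene, fell by 0.96 (SE 0.15) in IMQ+H2O and by 0.36 (SE 0.11) in IMQ+XYF, each against VAS+H2O (edgeR adjusted p of 0.00995 and 0.0471), and the latter call was lost in all 6 fits with a library left out. Nt5e (CD73), an ectoenzyme that makes adenosine, fell by 0.99 (SE 0.20) and 0.92 (SE 0.23), and Crim1, a transmembrane protein gene, by 0.52 (SE 0.14) and 0.48 (SE 0.08), in the same order. The edgeR adjusted p was 0.0188 and 0.0258 for Nt5e and 0.0382 and 0.00721 for Crim1. Nt5e passed in 2 of the 6 fits with a library left out in each comparison (adjusted p up to 0.0569 and 0.0848), and Crim1 in 1 (up to 0.127) and in all 6. The receptor tyrosine kinase gene Axl rose instead, from 98.7, 83.8 and 94.0 CPM for VAS+H2O to 120.7, 145.2 and 148.0 for IMQ+H2O and 144.6, 128.3 and 145.9 for IMQ+XYF. Its log2 fold changes against VAS+H2O were 0.57 (SE 0.11, edgeR adjusted p = 0.0152) and 0.60 (SE 0.09, adjusted p = 0.00408), which passed in 5 and 6 of the 6 fits with a library left out. Gadd45a, a stress response gene, rose by 0.72 (SE 0.17) and 0.62 (SE 0.13), with edgeR adjusted p of 0.0262 and 0.0126, and passed in 1 (adjusted p up to 0.0809) and 6 of these fits. Both comparisons use the same VAS+H2O libraries. None of the 15 passed between IMQ+XYF and IMQ+H2O in either tool. In edgeR, 4 (Arhgef17, Nuak2, Tgfb2 and Rbms3) had an unadjusted p under 0.05, as did 966 of all 17793 genes tested. The medians were -0.05 in that comparison and -0.20 between IMQ+XYF and VAS+H2O.

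**Figure D5:**
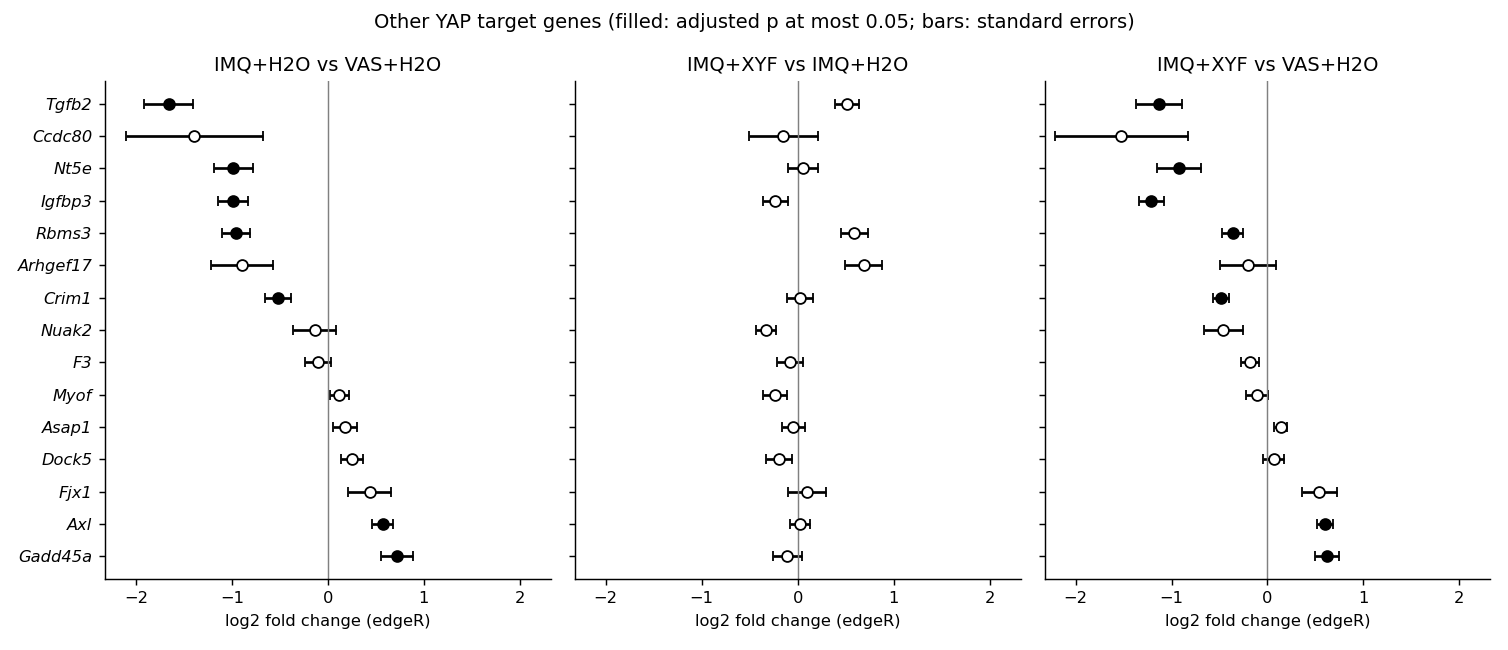
Log2 fold changes (horizontal axes, edgeR) of the 15 tested genes of the list of other YAP targets (vertical axis, ordered by the first comparison), with standard errors as bars and filled points where the adjusted p was at most 0.05. There are 5 filled points left of 0 and 2 right of it in both comparisons with VAS+H2O, and none is filled between IMQ+XYF and IMQ+H2O.

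The rest of the CCN family, to which Cyr61 and Ctgf belong, was scarcely detected. Nov (Ccn3) had at most 1.52 CPM, in VAS+H2O replicate 2, and 0 to 0.586 CPM in the other libraries. Wisp2 (Ccn5) had 0.0855 to 0.759 CPM, Wisp1 (Ccn4) 0 to 0.304 and Wisp3 (Ccn6) 0 to 0.258. Nov and Wisp2 were tested and passed in none of the comparisons in edgeR or DESeq2, with no unadjusted p under 0.05, and Wisp1 and Wisp3 were too low to be tested.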

How the data were processed

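The authors prepared TruSeq libraries from total RNA of epidermal ear sheets, aligned the reads with STAR (2.5 in the processing notes) to the mouse genome GRCm38 with the Ensembl 90 annotation and assembled transcripts with StringTie. The values they deposited are raw counts, whole numbers for each gene and library without normalization. The counting tool and its strand setting are not given in the sources used here. The labels call the libraries strand-specific, a property that the kit named in the methods does not have. The sources also differ on whether the gavage was given once or more often a day.

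Groups and replicate numbers were taken from the sample titles. The 3 pairs of groups were fitted separately, on 6 libraries each, with edgeR 4.0.16 in R 4.3.3 (TMM, filterByExpr, glmQLFit and glmQLFTest). Benjamini-Hochberg adjustment ran over all genes tested. A gene passed at an adjusted p of at most 0.05. Standard errors were derived from the test statistic. CPM used TMM factors (0.956 to 1.06) over 18492 genes, and exon lengths came from GENCODE M21. Ratios and shares had exact two-sided permutation tests over the 20 arrangements of 3 against 3. The fits were also run on simulated counts that gave every gene the same dispersion. That run does not speak for genes with a wider spread between libraries.

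The 10 genes and all lists were chosen with earlier results of these data known. The rule named, beside the 10 genes, up to 5 higher and 5 lower genes of each list by adjusted p among those that passed in a comparison, and every other CCN gene by its level. Genes outside it are named only as counted exceptions, as markers, or for a spread seen in their values. Alternatives were DESeq2 1.42.0, RLE size factors, no filter, a fit of all 9 libraries together, a minimum of 10 counts in each library, a replicate block, an added fold change threshold, shares without length, and each library left out. Libraries carried no molecular identifiers that the sources describe, so the floor covers counting error only. Column mapping left 0 value columns unused.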

Additional observations from a re-analysis of the deposited data

How the results depend on the processing

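Of the 10 genes, the number that passed between IMQ+H2O and VAS+H2O was 2 and ranged from 1 to 2 when each library was left out. It was 1 without VAS+H2O replicate 2 or without any 1 of the IMQ+H2O libraries, where Cyr61 lost its call, and without VAS+H2O replicate 3 Tead2 passed in place of Cyr61. The number was 0 between IMQ+XYF and IMQ+H2O, also in each fit without 1 library, and 1 with DESeq2. For IMQ+XYF against VAS+H2O the number was 1, with a range of 0 to 1 without 1 library, 2 with DESeq2, and 0 with no low-count filter, with all 9 libraries in 1 fit or with a log2 fold change of at least 1 also required. Over all genes, 3986, 5 and 5152 passed in edgeR in the 3 comparisons (IMQ+H2O against VAS+H2O, IMQ+XYF against IMQ+H2O, IMQ+XYF against VAS+H2O). With 1 library left out these were 1446 to 3077, 0 to 5 and 3221 to 4544, and with DESeq2 4839, 165 and 5711.

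Among upstream regulators, 5 passed in IMQ+H2O and 5 in IMQ+XYF, each against VAS+H2O. Without 1 library these were 2 to 4 and 1 to 3, and 1 and 0 with the fold change threshold. Among binding partners, 1 passed in each of these comparisons, with ranges of 0 to 2 and 1 to 2 without 1 library. The count was 3 and 2 with DESeq2, and in IMQ+H2O against VAS+H2O 0 with no filter and 3 with all 9 libraries in 1 fit. Among other YAP targets, 7 passed in each, with ranges of 4 to 6 and 4 to 7 without 1 library, and 1 and 2 passed with the fold change threshold. RLE size factors and the filter of at least 10 counts in every library moved no count by over 1.5 times, and no named fold change of the 10 genes that had passed turned its sign under any alternative run. Without division by exon length, the Tead1 share differed by 20.87 percentage points between IMQ+XYF and IMQ+H2O and by 14.68 between IMQ+XYF and VAS+H2O, and the Tead3 share by -17.33 between IMQ+XYF and IMQ+H2O.

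Equal replicate numbers did not pair the libraries: the correlation of deviations from the group means was -0.133 to 0.105 over the same-numbered pairs. With the replicate number as a block, the number of the 10 genes that passed was 1, 0 and 0 in the 3 comparisons (IMQ+H2O against VAS+H2O, IMQ+XYF against IMQ+H2O, IMQ+XYF against VAS+H2O). With this block, upstream regulators passed in 3, 0 and 3 cases, binding partners in 0, 0 and 2, and other YAP targets in 6, 0 and 5, and over all genes 3002, 0 and 3753 passed against 3986, 5 and 5152 without it.

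The lowest count of the 10 genes in a library was 28, for Tead2, and 236 among the other 9 genes, for Tead1. With 3 libraries a group, the exact tests could not pass. The cause of the changes between settings was not tested.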
